A study of Mus musculus with 6 samples.

Results

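Interferon-stimulated genes are described here in mammary tumor epithelial cells of PyMT mice, whose tumors are driven by the polyoma virus middle T oncogene. The members are 41 genes chosen by symbol: 38 had a row of their own in the deposited table of 24308 rows, and 37 of these had a mean of 1 FPKM or more (sequenced fragments per kilobase, scaled to the size of the library). The labels give 3 tumors as PyMT Elp3 cKO with MMTV-Cre and 3 as PyMT control, each from a different female FVBN mouse of 7 weeks. MMTV-Cre is Cre recombinase driven by the mouse mammary tumor virus promoter, which is active in mammary epithelium, and Elp3 is the catalytic subunit of the tRNA-modifying Elongator complex. All 6 samples share the PyMT oncogene, were tumors of similar size, and were enriched for epithelial cells before polyA RNA was sequenced.

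The genotypes could not be compared. Each Elp3 cKO column was equal to the control column of the same number in all 24308 rows, while Elp3 cKO column 3 and control column 1 differed in all 17635 rows in which either was above 0. The table therefore holds 3 distinct profiles, each under both labels, and these are called profiles 3, 2 and 1 after their replicate number. None was assigned to a genotype. With a single profile on each side of a ratio there is no replicate spread and no test, and each difference below describes these profiles only. The whole table summed to 621793 FPKM in profile 3, against 636842 in profile 2 and 622789 in profile 1. Absolute depth is unknown from such values. Profile 3 stood apart in many salivary gland genes, whose list summed to 1052 FPKM in profile 3, against 45.6 in profile 2 and 46.1 in profile 1. Of 11 with a mean of 1 FPKM or more, 8 were 1.5-fold or more higher in profile 3 than in profile 1. Of all genes with that mean, 9.39% were. Bhlha15 was 1.5-fold or more lower, as were 3.96% of all genes. Aqp5 was nearly level, at 42.9, 39.7 and 39.6 FPKM in profiles 3, 2 and 1. Since profile 3 differed in this way, values of profile 2 over profile 1 are given as the comparison without it. In a bulk sample, fewer cells of a type and less RNA per cell cannot be told apart.

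Interferons are secreted cytokines of the antiviral response. Type I interferons bind the receptor pair IFNAR1 and IFNAR2, whose kinases JAK1 and TYK2 activate transcription factors of the STAT family. With IRF9 these form a complex that binds the interferon-stimulated response element (ISRE) in the promoters of its target genes, while STAT dimers bind the gamma-activated site (GAS) after interferon gamma. The induced genes encode nucleic acid sensors, enzymes and membrane proteins that limit viruses, and part of the signalling chain itself. Epithelial cells express many of them at a low level without infection.

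The promoter letters that carry these elements are shown first, since they are what many of the members share beyond the list itself. RefSeq promoter windows of build GRCm38.p6, 250 bases before to 50 after the annotated start, were found for 31 of the 41 members. The letters searched were the ISRE core GAAANNGAA and the GAS letters TTCNNNGAA, on both strands. Of the 31 members, 17 held the ISRE core in at least 1 window, or 54.8%, against 8.23% of the 7732 measured genes with a window. GAS letters stood in 7 of 31, or 22.6%, against 8.08% of the same 7732 genes. The 5 windows below were picked after their ratios were seen, to show different cases side by side: Isg15, Ifit3 and Oas3 hold the core and were over 2-fold higher in profile 3 than in profile 1, Rsad2 holds it and was not, and Oasl2 holds none and was 3.05-fold higher. They read 5′ to 3′ on the strand of the gene, and capitals mark the ISRE core; where it lies on the opposite strand its reverse complement is capitalised.
Isg15, chr4:156200769-156201068, minus strand: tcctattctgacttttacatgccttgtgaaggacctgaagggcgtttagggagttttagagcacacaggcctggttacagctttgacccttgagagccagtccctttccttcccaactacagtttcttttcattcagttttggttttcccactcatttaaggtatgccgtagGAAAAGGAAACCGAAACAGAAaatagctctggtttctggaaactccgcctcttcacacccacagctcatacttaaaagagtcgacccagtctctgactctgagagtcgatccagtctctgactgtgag
Ifit3, chr19:34583279-34583578, plus strand: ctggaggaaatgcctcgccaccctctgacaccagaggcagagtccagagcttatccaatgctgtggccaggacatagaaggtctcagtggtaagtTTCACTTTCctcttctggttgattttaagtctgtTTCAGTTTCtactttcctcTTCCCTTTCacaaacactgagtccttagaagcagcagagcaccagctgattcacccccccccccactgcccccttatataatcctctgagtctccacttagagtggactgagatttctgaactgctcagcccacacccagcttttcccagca
Oas3, chr5:120777610-120777909, minus strand: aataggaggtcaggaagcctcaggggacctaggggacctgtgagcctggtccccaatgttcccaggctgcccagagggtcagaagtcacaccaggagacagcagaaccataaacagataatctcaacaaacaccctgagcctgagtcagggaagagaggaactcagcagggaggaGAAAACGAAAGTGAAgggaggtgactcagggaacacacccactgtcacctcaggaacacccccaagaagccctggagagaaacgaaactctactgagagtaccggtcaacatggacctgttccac
Rsad2, chr12:26456403-26456702, minus strand: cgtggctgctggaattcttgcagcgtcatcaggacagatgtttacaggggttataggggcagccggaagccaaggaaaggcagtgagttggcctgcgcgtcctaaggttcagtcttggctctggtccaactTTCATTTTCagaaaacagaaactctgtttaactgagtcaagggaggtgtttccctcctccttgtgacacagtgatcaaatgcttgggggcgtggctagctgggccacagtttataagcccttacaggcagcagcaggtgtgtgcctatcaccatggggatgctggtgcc
Oasl2, chr5:114896684-114896983, plus strand: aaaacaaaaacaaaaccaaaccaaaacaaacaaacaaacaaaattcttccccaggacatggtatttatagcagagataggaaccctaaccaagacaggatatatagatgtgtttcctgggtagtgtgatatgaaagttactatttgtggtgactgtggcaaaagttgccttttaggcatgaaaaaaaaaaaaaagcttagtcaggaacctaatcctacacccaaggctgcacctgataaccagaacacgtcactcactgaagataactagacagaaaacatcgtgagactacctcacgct

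In Isg15 the core occurred 3 times in overlapping register, between positions -78 and -58 from the start. Ifit3 held 3 separate copies between -155 and -94, all on the opposite strand. In Oas3 a pair of overlapping copies lay between -75 and -61. Rsad2 held a single copy between -119 and -111. The neighbouring paralogs Oas1a and Oas1g both carried the run GAAATGGAAACTGAA, which is a pair of overlapping cores. A match describes letters in a window and is neither a binding site nor a cause, and the absence of a match in Oasl2 says only that these letters are not in those bases.

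**Figure D1:**
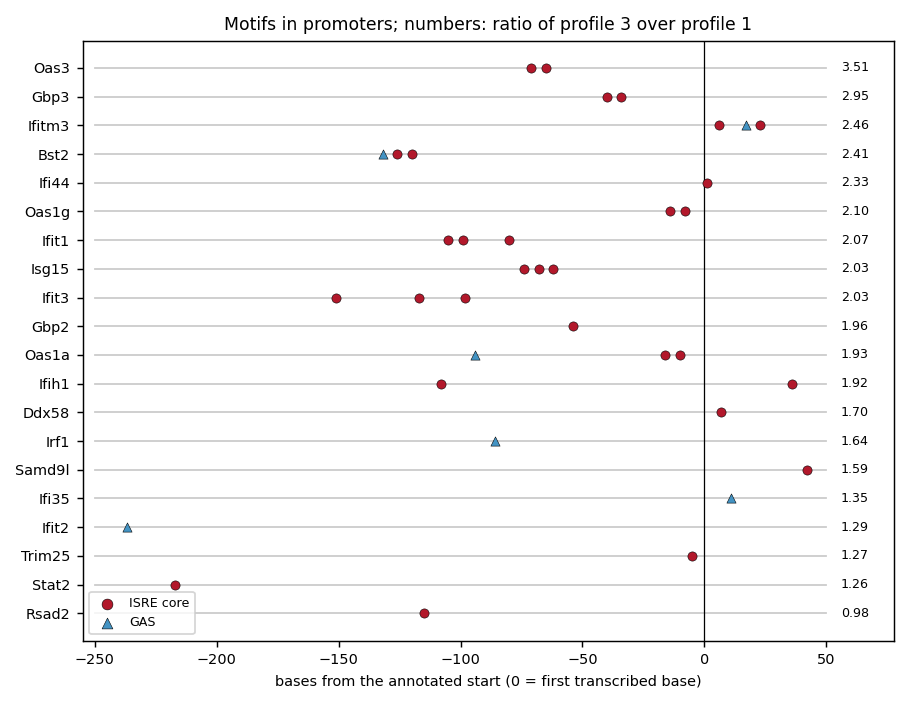
Positions of the ISRE core (red circles) and the GAS letters (blue triangles) in the promoter windows of members with at least 1 match and a mean of 1 FPKM or more. The x axis is the distance in bases from the annotated start, and the number at the right of each line is the ratio of profile 3 over profile 1, highest at the top: Oas3 stands at 3.51 and Rsad2, which also holds the core, at 0.98.

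Members were expressed at means from 1.69 to 222 FPKM. Ifitm3 had 337 FPKM in profile 3, against 191 in profile 2 and 137 in profile 1, and Bst2 had 256, 160 and 106 in profiles 3, 2 and 1. These 2 membrane proteins together held 44.8% of the summed FPKM of the 37 members in profile 3, against 41.7% in profile 2 and 38.8% in profile 1. The median over the 37 members was 17.2 FPKM in profile 3, against 13.7 in profile 2 and 10.3 in profile 1. Their summed level was 1325 FPKM in profile 3, against 841 in profile 2 and 626 in profile 1.

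**Figure D2:**
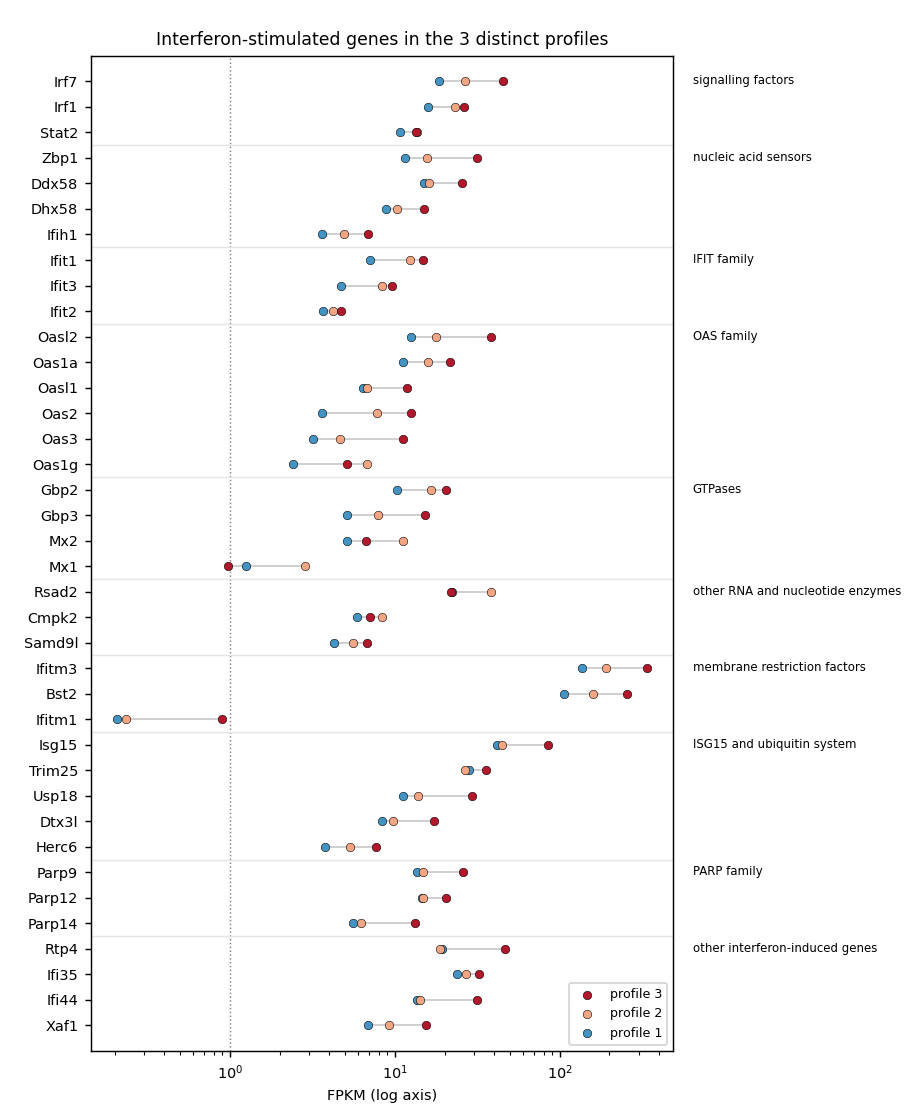
FPKM (log axis) of the 38 members with a row of their own in profile 3 (red), profile 2 (orange) and profile 1 (blue), grouped by role. The dotted line marks 1 FPKM, and only Ifitm1 has its mean under it. In 31 of the 37 members at or above that mean, profile 3 is the rightmost point.

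Most members were higher in profile 3 than in profile 1. Of 37 members, 28 were 1.5-fold or more higher in profile 3, against 9.39% of all 10770 genes that reached that mean. At 2-fold, 19 of 37 members passed, against 3.83% of all genes. None of the 37 was 1.5-fold or more lower, against 3.96% of all genes. The median ratio of profile 3 over profile 1 was 2.03 over the members (interquartile range 1.59 to 2.41, lowest 0.775, highest 3.51) and 1.01 over all genes. Members highest in profile 3 numbered 31 of 37, against 36.5% of all genes, and the other 6 were highest in profile 2, against 28.7%. Profile 1 was the lowest in 33 of 37, against 40.1% of all genes. The order profile 3 above profile 2 above profile 1 held in 29 of 37, against 23.9%.

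The ratio of a gene depends on its level, because low genes scatter more, so the members were set beside genes of similar level. Of the members with a mean from 5 to 20 FPKM, 20 of 24 were 1.5-fold or more higher in profile 3 than in profile 1, against 8.08% of all genes in that band. From 20 to 100 FPKM it was 5 of 8, against 4.24%. At 100 FPKM or more it was both of 2, Ifitm3 and Bst2, against 5.5%, and from 1 to 5 FPKM it was 1 of 3, Oas1g, against 18.7%. Gene by gene, each member was compared with all genes whose mean lay from 0.5 to 2 times its own, 520 to 4273 genes per member. In 35 of 37 members the ratio lay above the median of those genes, in 30 it lay above 90% of them and in 26 above 95%. Oas2, Oas3, Oasl2, Usp18, Zbp1 and Gbp3 lay above 99%.

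**Figure D3:**
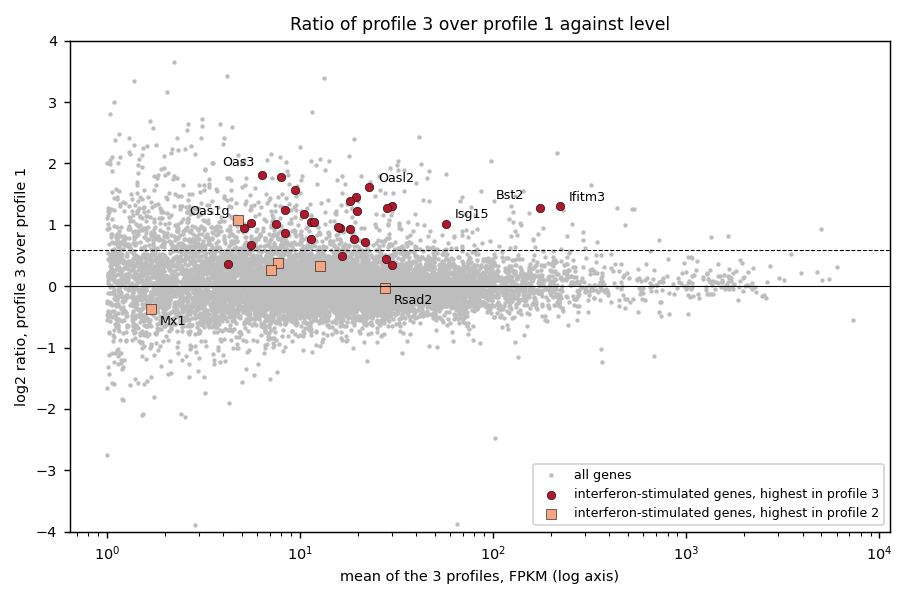
Log2 ratio of profile 3 over profile 1 (y axis) against the mean of the 3 profiles in FPKM (x axis, log) for all genes at or above a mean of 1 FPKM (grey). Members are red circles where highest in profile 3 and orange squares where highest in profile 2. The dashed line is 1.5-fold, passed by 28 of 37 members and 9.39% of all genes, and 9 grey genes lie beyond the axis limits of 4.

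Profile 2 lay between the others for most members. Against profile 2, 18 of 37 members were 1.5-fold or more higher in profile 3, where 4.91% of all genes were, and 3 were 1.5-fold or more lower, where 3.61% of all genes were. Profile 2 over profile 1 passed 1.5-fold in 10 of 37 members, against 5.97% of all genes. The median ratio was 1.46 for profile 3 over profile 2 and 1.36 for profile 2 over profile 1. These ratios share profiles, so they are given side by side and not as separate evidence. Members did not divide in the same way: Rtp4 was 2.41-fold higher in profile 3 than in profile 1 and 2.48-fold higher than in profile 2, while Ifit3 was 2.03-fold higher than in profile 1 and 1.14-fold higher than in profile 2.

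**Figure D4:**
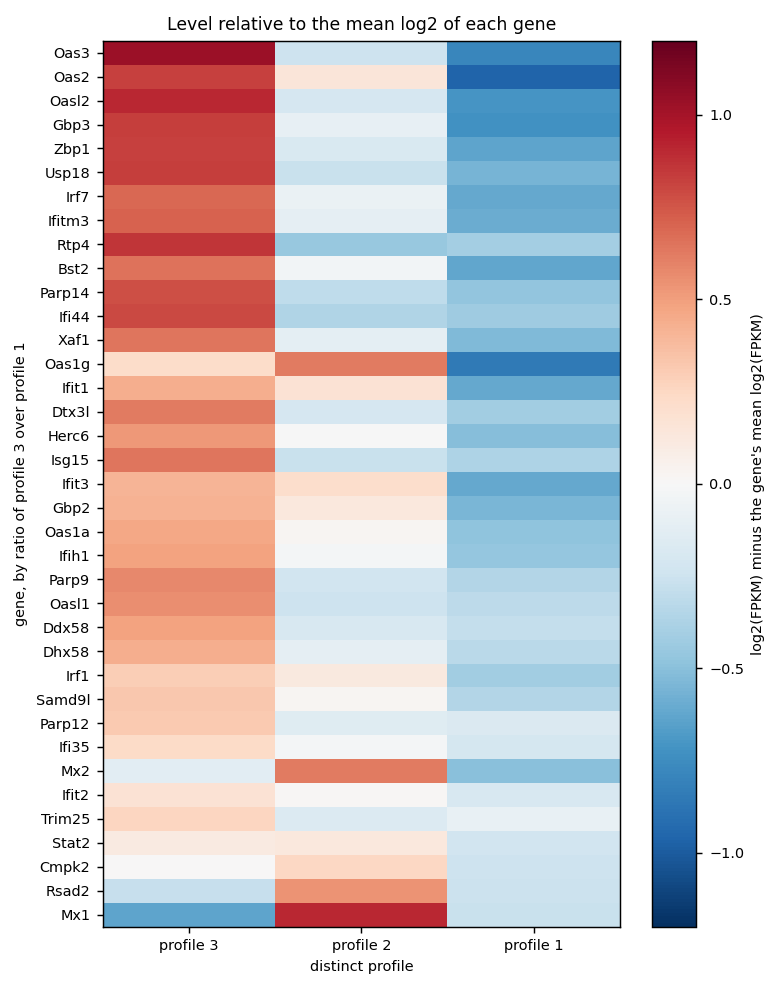
Level of each of the 37 members in profiles 3, 2 and 1 as log2(FPKM) minus the gene's own mean, ordered from the highest ratio of profile 3 over profile 1 at the top to the lowest at the bottom. Profile 3 is the reddest column in 31 genes, and Mx1, Rsad2, Cmpk2, Mx2, Stat2 and Oas1g have their highest value in profile 2.

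The signalling factors of the list differed among themselves. Irf7, the transcription factor that amplifies type I interferon production, stood at 45.4 FPKM in profile 3, against 26.5 in profile 2 and 18.4 in profile 1. That is a ratio of 2.47 for profile 3 over profile 1. Irf1, which interferon gamma strongly induces, had 26.1 FPKM in profile 3, against 23.1 in profile 2 and 15.9 in profile 1, so profiles 3 and 2 were close and profile 1 was low. Stat2 had 13.5, 13.7 and 10.7 FPKM in profiles 3, 2 and 1, a 3-over-1 ratio of 1.26. Irf9, the DNA-binding subunit of the STAT complex, appears only in a row that also names Rnf31, at 59.8 FPKM in profile 3, against 43.4 in profile 2 and 39.2 in profile 1, and was left out of the counts. Exons of Irf1 overlap those of Gm17334, and exons of Irf7 those of Phrf1, on the opposite strand.

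All 4 nucleic acid sensors were past 1.5-fold in profile 3 over profile 1, against 9.39% of all genes. All 4 were highest in profile 3, against 36.5% of all genes. Zbp1, a sensor of Z-form nucleic acid that can trigger cell death, had 31.4 FPKM in profile 3, against 15.6 in profile 2 and 11.5 in profile 1. Ddx58, which encodes the RNA sensor RIG-I, had 25.6, 16.1 and 15.1 FPKM in profiles 3, 2 and 1. Dhx58, which encodes the related helicase LGP2, was 1.70-fold higher in profile 3 than in profile 1. Ifih1, which encodes MDA5, a sensor of long double-stranded RNA, was the lowest of the group at 6.91, 4.88 and 3.59 FPKM in profiles 3, 2 and 1, a ratio of 1.92. Profile 2 over profile 1 was 1.36 in both Zbp1 and Ifih1, while profile 3 over profile 2 was 2.01 in Zbp1 and 1.42 in Ifih1.

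The IFIT genes, which encode proteins that bind viral RNA, lie together on chromosome 19 between positions 34550617 and 34650009 (mm10). Ifit1 stood at 14.7 FPKM in profile 3, against 12.3 in profile 2 and 7.11 in profile 1. Ifit3 had 9.54, 8.35 and 4.70 FPKM in profiles 3, 2 and 1. For both genes profile 3 was little above profile 2, and profile 1 was the low one. Ifit2 had 4.74, 4.22 and 3.68 FPKM in profiles 3, 2 and 1, and its ratio of 1.29 lay above 76.5% of genes of similar level. Of the 100-base stretches in the annotated Ifit3 transcripts, 31.7% also occur in Ifit3b, so the value of Ifit3 may include reads of that copy.

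The OAS family held the largest ratios among the 37. Its enzymes make oligoadenylates that activate RNase L, which degrades RNA. Oas3 had 11.2 FPKM in profile 3, against 4.63 in profile 2 and 3.21 in profile 1, a 3-over-1 ratio of 3.51. Oas2, its neighbour on chromosome 5 at a gap of 3249 bases, had 12.4, 7.80 and 3.62 FPKM in profiles 3, 2 and 1, a ratio of 3.44. Both were highest in profile 3, but profile 2 was nearer to profile 1 for Oas3 and midway for Oas2. Oasl2, an OAS-like protein with ubiquitin-like domains, had 38.3 FPKM in profile 3, against 17.8 in profile 2 and 12.5 in profile 1. Oasl1, which limits Irf7 translation in mice, had 11.8, 6.77 and 6.45 FPKM in profiles 3, 2 and 1. Its ratio to profile 1 was 1.83.

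Oas1a and Oas1g are close copies and differed in which profile was highest. Oas1a had 21.5 FPKM in profile 3, against 15.9 in profile 2 and 11.1 in profile 1, while Oas1g had 5.10, 6.75 and 2.43 in profiles 3, 2 and 1. Each is on a second row at the same position, where Oas1a stood at 3.45, 4.80 and 2.38 FPKM in profiles 3, 2 and 1 and Oas1g at 1.38, 2.52 and 0.193 in profiles 3, 2 and 1, so on the second rows both were highest in profile 2. The genes share 40.9% of the 100-base stretches of Oas1a and 38.2% of those of Oas1g. The Oas1g row also spans Oas1f and Oas1h. The sources used here do not give how reads were divided between them, and their separate values are uncertain.

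Among the GTPases the guanylate-binding proteins and the Mx proteins differed. Gbp3 had 15.2 FPKM in profile 3, against 7.93 in profile 2 and 5.14 in profile 1, and Gbp2 had 20.3, 16.5 and 10.3 in profiles 3, 2 and 1. Their ratios of profile 3 over profile 1 were 2.95 and 1.96. The dynamin-like Mx genes, which restrict virus replication, were both highest in profile 2: Mx2 had 6.68 FPKM in profile 3, against 11.2 in profile 2 and 5.12 in profile 1. Mx1 had 0.974, 2.84 and 1.26 FPKM in profiles 3, 2 and 1. Its ratio of profile 3 over profile 2 was 0.343, the lowest among the 37. Many laboratory mouse strains carry defective Mx1, and the GENCODE annotation of the reference strain lists Mx2 as a polymorphic pseudogene.

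The nucleotide enzymes Rsad2 and Cmpk2 shared the Mx pattern. Rsad2, viperin, makes a chain-terminating nucleotide, and stood at 21.7 FPKM in profile 3, against 38.3 in profile 2 and 22.1 in profile 1. Cmpk2, a mitochondrial nucleotide kinase whose product viperin uses, had 7.04, 8.30 and 5.88 FPKM in profiles 3, 2 and 1. For both genes profile 2 was the high one, and for Rsad2 profiles 3 and 1 lay at almost the same level. Rsad2 and Cmpk2 are neighbours on chromosome 12 with 12762 bases between their rows, and Mx1 and Mx2 are neighbours on chromosome 16 with 73174 bases between theirs. Over the 6 members highest in profile 2, the ratio of profile 3 over profile 2 ran from 0.343 in Mx1 to 0.987 in Stat2. Samd9l, an antiviral restriction factor, had 6.81 FPKM in profile 3, against 5.54 in profile 2 and 4.28 in profile 1. Isg20, an RNA exonuclease, stands only in a row that also names Aen, at 67.5, 72.3 and 66.6 FPKM in profiles 3, 2 and 1, and was left out of the counts.

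The membrane factors were the most abundant members. Ifitm3 blocks fusion of viruses in endosomes and Bst2, tetherin, holds budding virions at the cell surface. Profile 3 over profile 1 was 2.46 for Ifitm3, above 98.8% of 520 genes of similar level, and 2.41 for Bst2, above 98.7% of 685. Ifitm1 was low, at 0.893 FPKM in profile 3, against 0.233 in profile 2 and 0.208 in profile 1, and did not reach the minimum mean. Its row spans 5.75 times the length of the annotated gene and takes in Ifitm2.

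The ISG15 system also stood highest in profile 3. Isg15, a ubiquitin-like modifier that is attached to other proteins, had 84.4 FPKM in profile 3, against 44.7 in profile 2 and 41.6 in profile 1, so profiles 2 and 1 were close and profile 3 stood apart. Usp18, which removes ISG15 and damps the interferon receptor, had 29.2, 13.7 and 11.2 FPKM in profiles 3, 2 and 1 and a 3-over-1 ratio of 2.62. Herc6, the ISG15 ligase of mice, had 7.68, 5.33 and 3.76 FPKM in profiles 3, 2 and 1. Trim25, a ubiquitin ligase of the RIG-I pathway, had 35.4, 26.5 and 28.0 FPKM in profiles 3, 2 and 1, a ratio of 1.27. The Isg15 row spans 10 times the annotated gene, and 20.9% of the 100-base stretches of Herc6 also occur in the predicted gene Gm45193.

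Dtx3l and Parp9, a ubiquitin ligase and its ADP-ribosyltransferase partner, had ratios of 2.06 and 1.90 in profile 3 over profile 1. Parp9 had 26.1 FPKM in profile 3, against 14.9 in profile 2 and 13.7 in profile 1, and Dtx3l had 17.2, 9.70 and 8.35 in profiles 3, 2 and 1. Both lie in the same deposited span, chromosome 16 from 35926515 to 35972621, on opposite strands with overlapping exons. The library kit is not described as keeping strand, so reads in the overlap cannot be told apart. Parp14, an ADP-ribosyltransferase encoded 55132 bases away, had 13.2, 6.23 and 5.57 FPKM in profiles 3, 2 and 1. Parp12 was less different, at 20.3, 14.8 and 14.5 FPKM in profiles 3, 2 and 1 and a ratio of 1.40.

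Of the remaining interferon-induced genes, Rtp4, a receptor chaperone, had 46.7 FPKM in profile 3, against 18.8 in profile 2 and 19.4 in profile 1. Ifi44 had 31.6, 14.3 and 13.6 FPKM in profiles 3, 2 and 1. In both, profile 3 alone was high. Xaf1, a pro-apoptotic antagonist of XIAP, had 15.5 FPKM in profile 3, against 9.16 in profile 2 and 6.90 in profile 1. Ifi35 had 32.3, 27.1 and 23.9 FPKM in profiles 3, 2 and 1, a ratio of 1.35, in a row that also spans Rnd2 and Vat1. Ifi27 was matched to no row. The 9 members of the 37 that did not reach 1.5-fold in profile 3 over profile 1 were Parp12, Ifi35, Mx2, Ifit2, Trim25, Stat2, Cmpk2, Rsad2 and Mx1, with ratios from 1.40 down to 0.775.

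Members with and without the ISRE core had overlapping ratios. Of all genes, 9.39% were 1.5-fold or more higher in profile 3 than in profile 1. Of the 17 members whose window held the core, 14 were, with a median ratio of 2.03 and a range from 0.982 to 3.51. A window without the core was found for 14 members. Ifitm1, Irf9 and Isg20 among them have no ratio in the counts, and of the other 11, 7 were past 1.5-fold, with a median of 1.83, Cmpk2 lowest and Oasl2 highest. Among the windows printed above, Isg15, with 3 overlapping cores, stood at 2.03, and Oasl2, with none in its window, at 3.05.

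Other genes of the pathway were read from lists chosen for their role. Interferon ligands were near 0: of 17 with a row, all stayed under 1 FPKM and 11 had 0 in every profile. Ifnb1, interferon beta, had 0.584 FPKM in profile 3, against 0.880 in profile 2 and 0.139 in profile 1, and Ifng was among those listed at 0. The receptors, kinases and inhibitors were all at 1 FPKM or more, and 3 of 15 were 1.5-fold or more higher in profile 3 than in profile 1, against 9.39% of all genes, with a median ratio of 1.19. Those 3 were Socs3, a feedback inhibitor, at 24.2, 17.8 and 14.2 FPKM in profiles 3, 2 and 1, the receptor chain Ifnar2 at 40.8, 33.5 and 26.5 in profiles 3, 2 and 1, and Stat3 at 96.9, 88.0 and 63.7 in profiles 3, 2 and 1. Jak1 had 55.3 FPKM in profile 3, against 54.8 in profile 2 and 46.3 in profile 1.

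The adaptors and kinases that link sensors to interferon production were closer to equal, with a list median ratio of 1.07. Of 13, Tmem173 alone passed 1.5-fold in profile 3 over profile 1, where 9.39% of all genes did. Tmem173 encodes STING and had 13.3 FPKM in profile 3, against 11.2 in profile 2 and 8.48 in profile 1. Irf3, the factor that starts interferon transcription, had 28.6, 30.0 and 30.4 FPKM in profiles 3, 2 and 1. Tank, at 27.6, 21.2 and 24.0 FPKM in profiles 3, 2 and 1, Myd88, with a ratio of 1.19, and Tbk1, with 1.16, were likewise under 1.5-fold.

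Further interferon-induced genes that are not among the 41 were also mostly higher in profile 3. Of 36 that reached the minimum mean, 24 were 1.5-fold or more higher in profile 3 than in profile 1, against 9.39% of all genes. None was 1.5-fold or more lower, against 3.96%, and 30 were highest in profile 3, against 36.5%. Their median ratio was 1.75, against 1.01 over all genes. Ly6e, a membrane protein, had 813 FPKM in profile 3, against 599 in profile 2 and 544 in profile 1, and Psme2, a proteasome activator subunit, had 162, 116 and 91.9 in profiles 3, 2 and 1. The largest ratios were 3.24 for the complement inhibitor Serping1, at 33.2 FPKM in profile 3 and 10.2 in profile 1, 2.52 for Slfn2, at 28.2, 13.1 and 11.2 in profiles 3, 2 and 1, and 2.50 for the helicase Ddx60, at 2.63, 1.63 and 1.05 in profiles 3, 2 and 1.

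**Figure D5:**
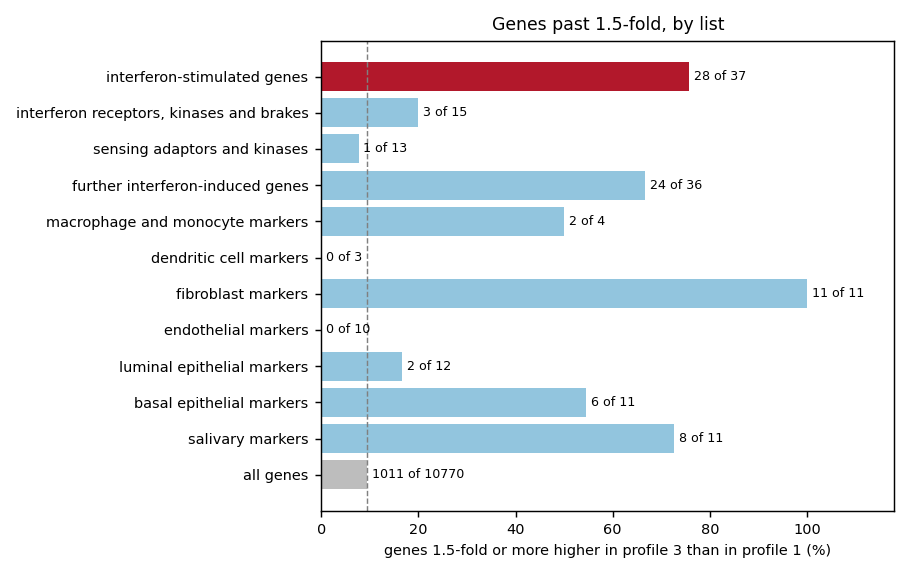
Percent of genes 1.5-fold or more higher in profile 3 than in profile 1, among genes at or above a mean of 1 FPKM, for the members (red), other lists with at least 3 such genes (blue) and all genes (grey, dashed line at 9.39%). Counts stand at the end of each bar: 28 of 37 members, 24 of 36 further interferon-induced genes, 11 of 11 fibroblast markers and 0 of 10 endothelial markers.

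Markers of other cells also differed between the profiles, and their part in the levels of the members was not tested. All 11 fibroblast markers at 1 FPKM or more were 1.5-fold or more higher in profile 3 than profile 1, against 9.39% of all genes. The 12 measured summed to 338 FPKM in profile 3, against 213 in profile 2 and 93.0 in profile 1. None of the 12 was listed at 0. Dcn, the matrix proteoglycan decorin, had 66.8, 54.4 and 18.2 FPKM in profiles 3, 2 and 1. Endothelial markers at 1 FPKM or more were lower by 1.5-fold or more in 10 of 10, against 3.96% of all genes. The 12 endothelial markers measured summed to 24.7 FPKM in profile 3, against 54.9 in profile 2 and 57.0 in profile 1. Tek and Vwf had means under 1 FPKM, and Vwf went the other way, at 0.309, 0.186 and 0.195 in profiles 3, 2 and 1. Luminal epithelial markers summed to 12504 FPKM in profile 3, against 11890 in profile 2 and 11806 in profile 1. Krt18 alone gave 4959, 5010 and 4232 FPKM in profiles 3, 2 and 1. Of 12 luminal markers, 2 were past 1.5-fold in profile 3 over profile 1, against 9.39% of all genes, with a list median of 1.06. None of the luminal markers was 1.5-fold or more lower, against 3.96%. Basal markers summed to 730, 773 and 624 FPKM in profiles 3, 2 and 1. The basal sum is mostly keratins and Itga6. Of 11 basal markers at 1 FPKM or more, 6 were past 1.5-fold in profile 3 over profile 1, against 9.39% of all genes. The list median was 1.93. Those 6 were the contractile genes Acta2, Tagln, Cnn1 and Myh11, the receptor gene Oxtr and the transcription factor gene Snai2. The basal keratins, Itga6 and Trp63 did not reach 1.5-fold. Their ratios were 1.24 for Krt5, 1.05 for Krt17, 0.916 for Itga6, 0.896 for Krt14 and 0.871 for Trp63. Tagln, which encodes the actin-binding protein transgelin, had 58.0 FPKM in profile 3, against 24.0 in profile 2 and 14.1 in profile 1, a ratio of 4.12.

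Immune markers were mostly near 0. Of 17 macrophage and monocyte markers with a row, 4 reached 1 FPKM, none was at 0 in all profiles, and the list summed to 131 FPKM in profile 3, against 72.4 in profile 2 and 83.5 in profile 1, of which Cd14 alone gave 102, 49.9 and 55.2 in profiles 3, 2 and 1. Csf1r, the macrophage growth factor receptor, had 1.40, 1.15 and 0.791 FPKM in profiles 3, 2 and 1. Among dendritic cell markers Siglech, Cd209a and Klrd1 were at 0 in all profiles, and the 12 summed to 18.9, 21 and 17.8 FPKM in profiles 3, 2 and 1. Most of that sum was Bst1, at 11.4, 12.1 and 9.86 FPKM, and Tcf4, at 5.62, 6.46 and 6.41 FPKM in profiles 3, 2 and 1. T and NK cell markers summed to 6.07 FPKM in profile 3, against 7.06 in profile 2 and 3.37 in profile 1, mostly Thy1, with 8 of 17 at 0, Cd3d, Cd3g and Ncr1 among them. B cell markers summed to 0.195, 0.185 and 0.267 FPKM in profiles 3, 2 and 1, with Ms4a1 at 0. Neutrophil markers summed to 979 FPKM in profile 3, against 431 in profile 2 and 411 in profile 1, nearly all from Ltf and S100a8, while Camp and Retnlg were at 0.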

How the data were processed

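The authors deposited 1 table with FPKM per gene in 6 columns and a further column of FPKM, treated here as the authors' summary over several values. The submitters' processing notes name Cuffdiff, Cufflinks 2.1.1, TopHat2 2.0.9 and build mm10. The sources used here give neither their roles nor the annotation and the scaling between libraries. FPKM hides depth, and its library scaling sets every ratio. Each value column was assigned to its sample by its name, which left 0 unassigned. Rows without a symbol (1366, holding 7.84%, 10.0% and 11.9% of summed FPKM in profiles 3, 2 and 1) and 514 rows naming several genes stayed out. A symbol on several rows took the row with the highest mean.

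The members and lists were chosen with earlier results of these data known. Every member is named. Of other lists, the rule takes the 2 highest means and, for interferon lists, the 3 largest ratios among genes at 1 FPKM or more. Other named genes were chosen for their role or after their values were seen. Ratios are of FPKM without a pseudocount, and a gene at 0 in the lower profile and above 0 in the other counts as past the fold. Counting was tested on simulated data. Row starts were raised by 1, since 41.8% of 19917 symbols have the deposited start 1 below that of RefSeq GRCm38.p6 and 2.65% an equal start. Shared stretches and exon overlaps come from GENCODE M21 (GRCm38). Python 3.11.15, pandas 2.3.3, numpy 2.4.6 and matplotlib 3.10.9 were used. Alternatives covered scaling, pseudocount, filter, row choice, fold and profiles left out.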

Additional observations from a re-analysis of the deposited data

Results flagged for a closer look

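The authors' summary column lies outside the comparisons above. Times 9, it became a number of 4 decimals in 85.4% of the 6491 rows checked, where no other multiplier tried gave more than 28.5%. If it is a mean over 9 values in which each of the 3 profiles entered 2 times, a further 3 values per row, not listed in the table, enter it. The mean of those 3 values came out above all 3 profiles in 1 of 37 members, Irf1, or 2.7%, against 29.3% of all 10770 genes, and in Ifitm1, which lies under the minimum mean and outside the 37. For Ifitm1 it was 1.01 FPKM, against 0.893 in profile 3, with 0.233 in profile 2 and 0.208 in profile 1. For Irf1 it was 26.2 FPKM, against 26.1 in profile 3, with 23.1 in profile 2 and 15.9 in profile 1. These derived values have no replicate spread and were not tested.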

How the results depend on the processing

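No paired analysis was possible because each Elp3 cKO column equals the control column that bears its number. Of 43 alternative values, 35 stayed within 1.5 times the reported count or within 0.1 of the reported median on the log2 scale. No alternative median changed sign, and a count has no direction that could change. The 28 of 37 members past 1.5-fold in profile 3 over profile 1 became 27 or 28 of 37 under other scalings and a pseudocount. The share of all genes there was 6.72% to 8.65%. Without a minimum level it was 29 of 38 members, against 13.4% of all genes. At a mean of 5 FPKM or more it was 27 of 34, against 6.32%. Without replicate 1 (profile 3 over profile 2) or replicate 3 (profile 2 over profile 1) the count was 10 to 18, and the median log2 ratio of 1.02 was 0.45 to 0.55. With log2(FPKM + 1) that median was 0.89, a scale that understates low genes. At 2-fold the count was 7 for profile 3 over profile 2, against 1.86% of all genes, and 4 for profile 2 over profile 1, against 2.3%. At a threshold of 25% higher, 23 passed in profile 2 over profile 1, against 15.0% of all genes. The longer ISRE letters, the core followed by 1 more A, stood in 14 of 31 member promoters, against 3.6% of 7732 measured genes. Depth is unknown from FPKM, so counting error could not be given.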

Other observations

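The 3 values per row that the authors' summary leaves over, under the reading given above, were lower than the profiles for most members. Their mean was below all 3 profiles in 33 of 37 members, or 89.2%, against 42.2% of all 10770 genes, and at or below 0.5 times the mean of the profiles in 23 members, or 62.2%, against 5.59% of all genes. The median ratio of that remainder to the mean of the profiles was 0.223 over the members and 0.946 over all genes. No remainder came out below 0 among the members. For Isg15 the authors' summary was 40.4 FPKM and the remainder 7.51 FPKM, against 84.4 in profile 3, with 44.7 in profile 2 and 41.6 in profile 1. Ifi44 had a remainder of 1.76 FPKM, against 31.6, 14.3 and 13.6 in profiles 3, 2 and 1. Rsad2, which was highest in profile 2, had a remainder of 3.46 FPKM, against 21.7, 38.3 and 22.1 in profiles 3, 2 and 1.

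Members were not uniform in this value. Ifitm3 had a remainder of 186 FPKM, against 337 in profile 3, with 191 in profile 2 and 137 in profile 1, and Samd9l had 4.43, against 6.81, 5.54 and 4.28 in profiles 3, 2 and 1. The median ratio of remainder to profile mean was 0.544 over 36 further interferon-induced genes, 0.927 over 15 receptor and kinase genes, 1.12 over 13 adaptors, 0.719 over 12 luminal markers, 1.40 over 11 fibroblast markers, 2.78 over 10 endothelial markers and 5.93 over 11 basal markers. Low values were not limited to interferon-induced genes: the median was 0.270 over 4 macrophage and monocyte markers, 0.250 over 2 neutrophil markers and 0.00141 over 11 salivary markers. The samples behind the remainder are not known, so it was assigned to no genotype and no comparison between genotypes was drawn from it. The part of cell makeup in these values was not tested.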
